A study of Mus musculus with 4 samples.

Results

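The genes described here are the immunoglobulin constant genes Ighm, Ighd, Igha, Ighg1, Ighg2b, Ighg2c, Ighg3 and Igkc together with Jchain, 9 of the 55450 genes listed in a droplet single-cell RNA series of mouse liver. They were chosen by symbol, and their unique molecular identifiers (UMIs, 1 per captured transcript) were read in plasma cells and B cells, with T cells as the measure of free RNA. The series holds 1 library from 1 mouse in each of 4 groups, all wild-type C57B6 mice aged 18 to 20 weeks. Intraperitoneal thioacetamide, a hepatotoxin that models fibrosis, was given to the TAA mouse over 12 weeks. In TAA+C7.5 and TAA+C30, celecoxib, a cyclooxygenase-2 inhibitor, was added by gavage at 7.5 or 30 mg/kg, beginning in week 5. The control mouse received normal saline. Livers were digested with enzymes, hepatocytes were spun out at low speed and erythrocytes were lysed, which leaves nonparenchymal cells. With 1 mouse per group, a difference between groups cannot be told apart from a difference between mice, and intervals on values of single libraries cover counting error only.

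A B cell first makes IgM and IgD by splicing its rearranged variable segment to the Ighm or Ighd constant exons, and class switching then joins that segment to a downstream constant gene. In plasma cells the heavy-chain and kappa light-chain transcripts become the most abundant in the cell and the secreted form replaces the membrane form. Jchain encodes the joining protein that links IgA dimers and IgM pentamers, which the polymeric immunoglobulin receptor carries across epithelia into bile and gut. IgA plasma cells are known for mucosal sites, and IgG2c takes the place of IgG2a in C57BL/6 mice.

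The 7 heavy-chain members lie on the minus strand of chromosome 12 (GRCm38), between bases 113254830 and 113422730, in the transcriptional order Ighm, Ighd, Ighg3, Ighg1, Ighg2b, Ighg2c and Igha, with Ighe between Ighg2c and Igha. Igkc (ENSMUSG00000076609) lies on the plus strand of chromosome 6, at bases 70726435 to 70726966. Jchain (ENSMUSG00000067149) lies on the minus strand of chromosome 5, at bases 88519809 to 88527891. The sequences below are the last 75 coding bases of the secreted-form transcript of each class described in plasma cells, from GENCODE M21. They are shown because this tail is where secreted IgM and IgA differ from secreted IgG: the capitals mark bases found only in the secreted form, after the splice donor to the membrane exons, 62 bases in Ighm and Igha against 8 in each IgG gene, the stop codon included. The capitals of Ighm and Igha end in a cysteine codon (TGC), a tyrosine codon and the stop, and this cysteine of the tailpiece is known to bond to the J chain.
Ighm: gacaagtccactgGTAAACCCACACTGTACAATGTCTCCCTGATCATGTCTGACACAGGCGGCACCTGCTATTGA
Igha: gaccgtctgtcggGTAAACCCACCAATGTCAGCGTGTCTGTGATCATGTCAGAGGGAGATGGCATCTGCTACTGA
Ighg1: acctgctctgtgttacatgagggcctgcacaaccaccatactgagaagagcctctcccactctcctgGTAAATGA
Ighg2b: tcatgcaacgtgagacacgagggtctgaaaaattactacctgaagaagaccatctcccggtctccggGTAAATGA
Ighg2c: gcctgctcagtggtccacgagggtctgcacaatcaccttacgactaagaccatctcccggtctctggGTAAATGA
Ighg3: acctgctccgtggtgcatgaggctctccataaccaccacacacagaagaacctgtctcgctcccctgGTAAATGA

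These windows lie at chr12:113420867-113420941 for Ighm, chr12:113258768-113258842 for Igha, chr12:113328976-113329050 for Ighg1, chr12:113306389-113306463 for Ighg2b, chr12:113287389-113287463 for Ighg2c and chr12:113359665-113359739 for Ighg3, all in the last coding exon of the secreted form. The 4 IgG genes were 76.2% to 86.4% identical over their secreted coding sequence, and Ighg2b and Ighg2c shared the longest exact stretch, 78 bases. Ighm and Igha shared at most 15 exact bases with any other of these genes. How reads common to IgG paralogs were assigned is not given in the sources used here, so the split between Ighg2b and Ighg2c is less certain than the split between IgA and IgG. Counts were made from the 3′ end and do not separate membrane from secreted transcripts.

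The libraries held 6915 barcodes in TAA, 6117 in TAA+C7.5, 6284 in TAA+C30 and 6583 in control, and 6463, 5913, 6059 and 5670 cells in the same order were kept. Total UMIs ranged between 17888247 in TAA+C7.5 and 48419305 in TAA, so the TAA+C7.5 values are the shallowest. Any pair of libraries shared 9 to 14 barcodes, and no plasma cell barcode was shared. Cells were clustered without the 433 immunoglobulin genes and Jchain, so the levels below did not place a cell in its class. Plasma cells numbered 49 in TAA (0.758% of cells), 100 in TAA+C7.5 (1.69%), 59 in TAA+C30 (0.974%) and 13 in control (0.229%; 95% Clopper-Pearson interval 0.122% to 0.392%). All 10 plasma cell markers, among them Sdc1, Xbp1 and Prdm1, were detected in the class in each library, at a summed 8392, 8956 and 9332 CPM (counts scaled to the total) of non-immunoglobulin UMIs in TAA, TAA+C7.5 and TAA+C30 and 9846 CPM in control. The B cell markers summed to 2365, 2416, 2349 and 1844 CPM there, and the T cell markers to 385, 797, 369 and 585 CPM, with 10 of 12 T cell markers at 0 in control. The part of other cells' RNA in the levels below was measured in T cells.

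IgA cells were the most frequent plasma cells in all 4 livers, and IgG plasma cells were found in the 3 thioacetamide livers. With each cell classed by its best-scoring marker set instead of its cluster, the IgA shares given next were 41.0% in TAA, 53.6% in TAA+C7.5, 35.1% in TAA+C30 and 58.3% in control. Each plasma cell was assigned the heavy-chain gene with the most UMIs, where the cell had at least 10 heavy-chain UMIs and at least 60% of them came from that gene. IgA cells were 40 of 49 in TAA (81.6%; 68.0% to 91.2%), 75 of 100 in TAA+C7.5 (75%; 65.3% to 83.1%), 39 of 59 in TAA+C30 (66.1%; 52.6% to 77.9%) and 12 of 13 in control (92.3%; 64.0% to 99.8%). IgG cells were 9 of 49 in TAA (18.4%; 8.76% to 32.0%), 23 of 100 in TAA+C7.5 (23.0%; 15.2% to 32.5%), 18 of 59 in TAA+C30 (30.5%; 19.2% to 43.9%) and 0 of 13 in control, which allows a share of up to 23.1%. The intervals of the 3 thioacetamide livers overlapped one another, and all 3 IgG intervals reached below the control limit, so 13 control cells cannot show that IgG cells were absent or rarer there. IgM cells numbered 0, 1 and 2 in TAA, TAA+C7.5 and TAA+C30 and 1 in control, and 1 cell of TAA+C7.5 had too few heavy-chain UMIs for a call.

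**Figure D1:**
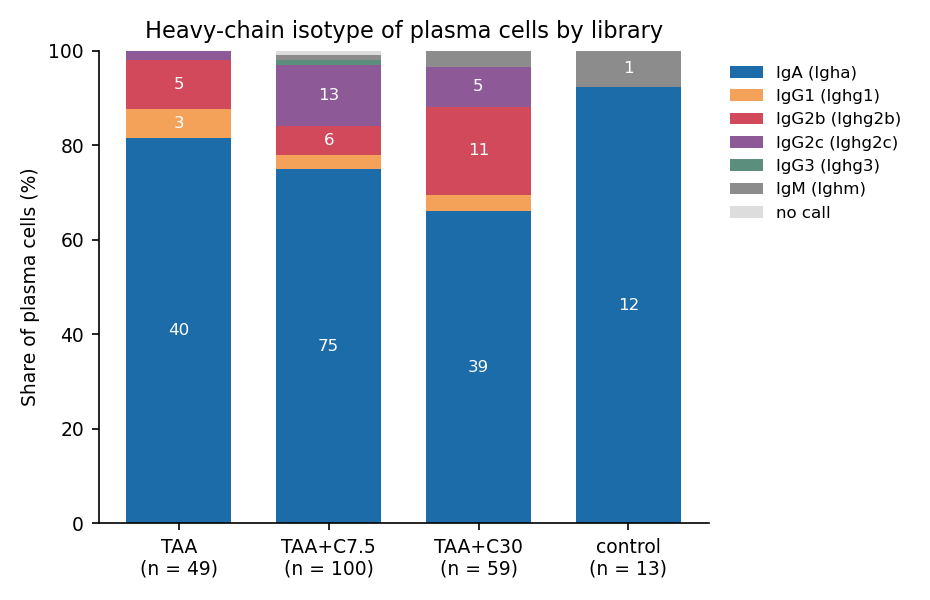
Bars give the share of plasma cells (percent) called for each heavy-chain gene in each library, with the number of plasma cells under each bar and the number of cells inside the larger segments. IgA fills 66.1% to 92.3% of each bar, and the control bar holds 12 IgA cells and 1 IgM cell.

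The calls were clear in nearly all cells. The top gene held a median 99.9% of the heavy-chain UMIs of a plasma cell, over 95% in 212 of 221 cells and under 80% in 4. Of those 4, 2 cells of TAA+C7.5 held large numbers of both IgA and IgG transcripts, 1 with 1994 Igha and 5208 Ighg2c UMIs and 1 with 4141 Igha and 1762 Ighg2c UMIs. Barcodes called doublets had been removed before, by calls made without immunoglobulin genes and Jchain. Whether these 2 barcodes hold 1 cell or more was not tested. The first of these 2 had 47224 UMIs in all, the most of any plasma cell in that library, whose median was 12424.

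Among IgG plasma cells the leading subclass was not the same in each liver. IgG2b, a ligand of Fc gamma receptor 4, led in TAA with 5 of 9 IgG cells (55.6%; 21.2% to 86.3%) and in TAA+C30 with 11 of 18 (61.1%; 35.7% to 82.7%). IgG2c, the subclass of type 1 responses, led in TAA+C7.5 with 13 of 23 (56.5%; 34.5% to 76.8%), against 5 of 18 in TAA+C30 (27.8%; 9.69% to 53.5%) and 1 of 9 in TAA (11.1%; 0.281% to 48.2%). IgG1, the subclass of type 2 responses, was called in 3 cells of TAA, 3 of TAA+C7.5 and 2 of TAA+C30. IgG3 was called in 1 cell, in TAA+C7.5. The IgG2c interval of TAA+C7.5 overlapped those of the other livers.

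The UMI level of each class followed these few cells. Igha was at 118563, 99632 and 80669 CPM of plasma cell UMIs in TAA, TAA+C7.5 and TAA+C30, against 142964 CPM in control. Igha was thus at the top of the heavy chains in each liver, lowest in TAA+C30 and highest in control. Ighg2b was at 8430, 8751 and 41911 CPM in TAA, TAA+C7.5 and TAA+C30, against 110 CPM in control. Ighg2c was at 2143, 28151 and 21693 CPM, against 61.2 CPM in control. Each of these IgG2 genes was higher in all 3 thioacetamide livers than in the control liver, where 0 of 13 cells were called IgG. In TAA 1 cell held 2309 of the 2357 Ighg2c UMIs. Ighg1 was at 11061, 4605 and 3441 CPM, and no Ighg1 UMI was found in the 13 control cells. Ighg3 was at 2.73, 2472 and 5.17 CPM, against 225 CPM in control, and the TAA+C7.5 level came from the single IgG3 cell. Ighm was at 136, 729 and 318 CPM, against 10635 CPM in control, where 1 IgM cell held 2581 of the 2605 UMIs. Ighd, which plasma cells switch off, had 11, 2 and 16 UMIs, and 0 UMIs in control. Ighe, the IgE gene, had 11 UMIs in TAA+C30 and 0 in the others.

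As a share of all heavy-chain UMIs in plasma cells, the 4 IgG genes made up 15.4% in TAA, 30.5% in TAA+C7.5, 45.3% in TAA+C30 and 0.257% in control. Giving each cell the same weight, the shares were 18.7%, 23.2% and 31.0% in the thioacetamide livers and 0.267% in control, so that equal weight raised the share in TAA and lowered it in TAA+C7.5 and TAA+C30. Without the cell with the most heavy-chain UMIs the summed share in TAA+C30 was 40.8%.

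**Figure D2:**
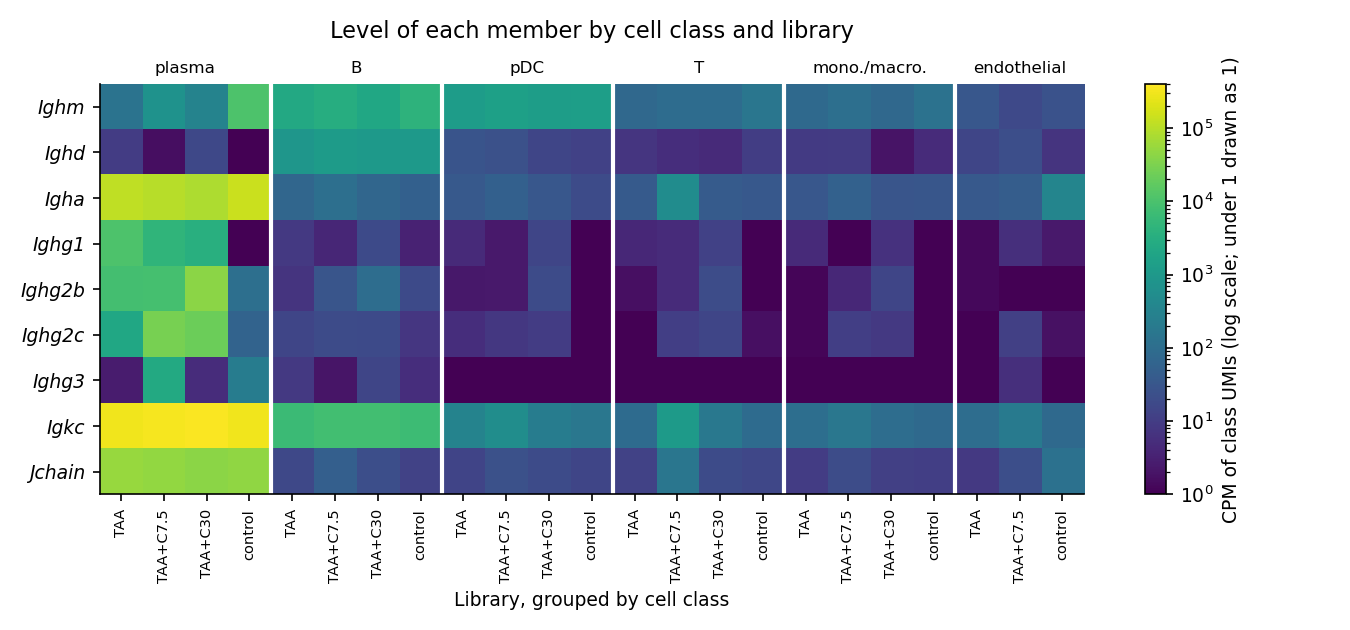
Colour gives the level of each gene (CPM of the UMIs of the class, log scale, values under 1 drawn as 1) in each cell class (column blocks) and library (columns). Igha, Igkc and Jchain stand highest in plasma cells, Ighd in B cells, and Ighm is also high in plasmacytoid dendritic cells (pDC); endothelial cells of TAA+C30 were under 20 and are left out.

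Between libraries, a gene was counted as different where the log2 ratio of its CPM, with 10 CPM added to both sides, was at least 1 in size. In TAA against control plasma cells 4 of 9 members were higher and 2 lower by this measure, where 5.52% of all 6545 genes with at least 10 UMIs were higher and 5.06% lower. The higher ones were Ighg1 (12163 against 0 UMIs, 6683 of them in 1 TAA cell), Ighg2b (9270 against 27 UMIs), Ighg2c (2357 against 15 UMIs, 2309 of them in 1 TAA cell) and Ighd. Ighd had 11 against 0 UMIs, a log2 ratio of 1.00 and a bound of 0.817-fold with 3 counts in control. No fold is given for these IgG genes, since a single IgG cell among the 13 control cells would have changed it. The control UMIs of Ighg2b and Ighg2c lay in cells called IgA. Intervals of the ratios given below cover the counting of UMIs, not of cells. Without the top cell of each library the log2 ratio of Ighg2b was 6.74 in place of 6.13 and that of Ighg2c 2.44 in place of 4.92. The lower ones were Ighm (log2 ratio -6.18) and Ighg3 (log2 ratio -4.20), and without the top cell of each library they were at -0.57 and 0.00. Igha (log2 ratio -0.27), Igkc (0.02) and Jchain (0.21) lay within 2-fold. The median over the 9 members was 0.21, against -0.07 over all genes, and a scaling by trimmed mean of M values moved the log2 ratios of all genes up by 0.35, which put Igha at 0.08 and left the same 6 members past 2-fold.

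Ighg2c was the gene most often met among IgG cells at 7.5 mg/kg celecoxib. In TAA+C7.5 against TAA plasma cells 3 of 9 members were higher and 1 lower, where 0.85% of 8118 genes were higher and 1.07% lower. Ighg2c was 13.1-fold higher (12.6 to 13.7), Ighg3 906-fold (310 to 4396, from 3126 UMIs against 3) and Ighm 5.34-fold (4.49 to 6.39). Ighg1 was lower, at a ratio of 0.416 (0.403 to 0.430), and its log2 ratio of -1.26 became -0.99 without the top cell of each library. In the same setting Ighm was at 0.51, Ighg3 at 1.46 in place of 7.61, and Ighg2c at 8.84 in place of 3.71, since 1 TAA cell held 2309 of the 2357 Ighg2c UMIs of that library. Igha (log2 ratio -0.25), Ighg2b (0.05), Igkc (0.12) and Jchain (-0.18) lay within 2-fold, although UMIs per cell, in the shallower TAA+C7.5 library, gave -1.08 for Igha and -1.01 for Jchain.

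At 30 mg/kg both IgG2 genes were higher than in TAA alone. In TAA+C30 against TAA plasma cells 3 of 8 tested members were higher and 1 lower, where 0.713% of 7437 genes were higher and 1.64% lower. Ighg2c was 10.1-fold higher (9.70 to 10.6), Ighg2b 4.97-fold (4.86 to 5.09) and Ighm 2.33-fold (1.91 to 2.85), the last at a log2 ratio of 1.16 that was 1.00 without the top cell of each library and then just short of 1. Ighg1 was lower, at a ratio of 0.311 (0.299 to 0.323). Without the top cell of each library the log2 ratio of Ighg2c was 7.66 in place of 3.33 and that of Ighg1 -2.65 in place of -1.68. Igha (log2 ratio -0.56), Igkc (0.27) and Jchain (-0.41) lay within 2-fold, and UMIs per cell gave -1.01 for Igha. Both celecoxib comparisons share the TAA library. At the 2 doses Ighg2c was at 28151 CPM with 7.5 mg/kg and 21693 CPM with 30 mg/kg, and Ighg2b at 8751 and 41911 CPM.

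The light chain and the J chain took a steadier part of the plasma cell transcriptome than the heavy chain classes. Igkc was at 302771, 328480 and 365601 CPM in TAA, TAA+C7.5 and TAA+C30, against 298315 CPM in control. All immunoglobulin genes together made up 52.3%, 54.0% and 58.5% of plasma cell UMIs, against 50.4% in control. Per cell, the Igkc count had a median of 5406, 3044 and 4496 UMIs in the thioacetamide livers and 3816 in control, with depth differing between libraries (median plasma cell UMIs 22202, 12424 and 16970, against 16124). Cells with more lambda (Iglc1, Iglc2 or Iglc3) than kappa UMIs were 3 of 49, 3 of 100 and 3 of 59, and 0 of 13 in control, which makes 9 of 221 in all (4.07%; 1.88% to 7.59%). Of these, 7 were IgA cells and 2 were IgG cells of TAA+C30.

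Jchain was at 54964, 48485 and 41455 CPM in TAA, TAA+C7.5 and TAA+C30, against 47682 CPM in control. It was found in 219 of the 221 plasma cells, IgG cells included. In IgA cells there were 43.7, 35.7 and 40.1 Jchain UMIs per 100 heavy-chain UMIs in the thioacetamide livers, against 32.3 in control IgA cells. In IgG cells there were 14.0 in TAA, 28.8 in TAA+C7.5 and 13.2 in TAA+C30. IgA cells were thus above IgG cells of the same liver in 3 of 3 livers, least so in TAA+C7.5. The median over cells was 0.418 Jchain UMIs per heavy-chain UMI in IgA cells and 0.107 in IgG cells of TAA, 0.347 and 0.243 in TAA+C7.5, and 0.385 and 0.154 in TAA+C30. The ranges of single cells overlapped in each liver: in TAA they ran between 0.142 and 0.805 in IgA cells and between 0.0731 and 0.251 in IgG cells.

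**Figure D3:**
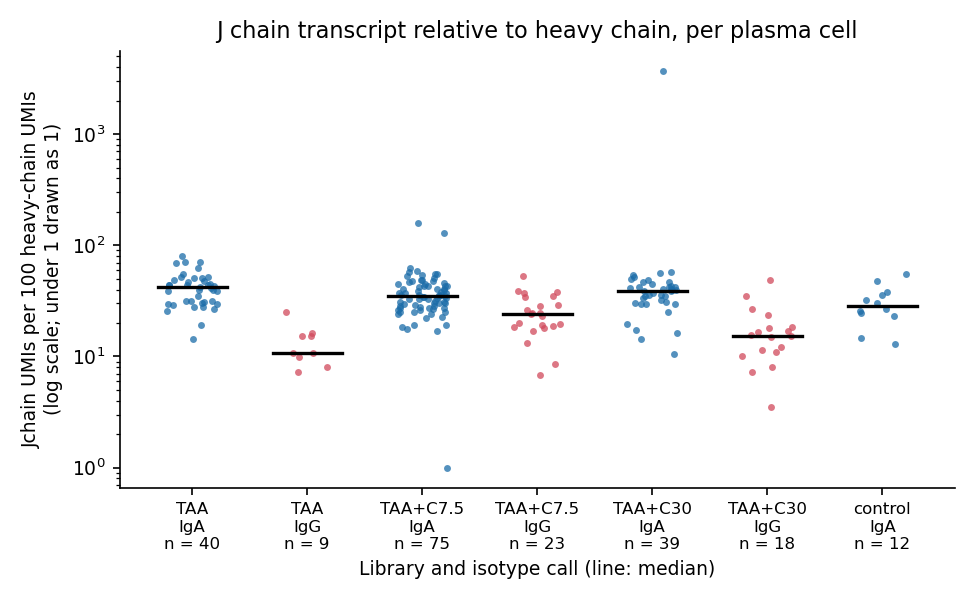
Each point is a plasma cell, placed by its Jchain UMIs per 100 heavy-chain UMIs (log scale, values under 1 drawn as 1), for IgA and IgG cells of each library, with the median as a line. In each thioacetamide library the IgA median lies above the IgG median, and the cells overlap; 1 IgA cell of TAA+C30 with 410 Jchain and 11 heavy-chain UMIs lies far above the rest.

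That difference was set against its own variation over the 3 thioacetamide livers. The UMIs of IgA and of IgG cells were summed in each liver, and edgeR's quasi-likelihood model was fitted with the library as a term. The 3 livers differ in treatment, so this variation can hold treatment as well as mouse. Cells of 1 liver were not used as replicates. Jchain was higher in IgA than IgG cells by 0.95 ± 0.41 (log2, SE), higher in 2 of 3 livers per non-immunoglobulin UMI, and did not pass (adjusted p = 0.323). Scaled to those UMIs, Jchain was at 134063 CPM in IgA against 33519 in IgG cells of TAA, 104687 against 108171 in TAA+C7.5 and 131980 against 54425 in TAA+C30, so the TAA+C7.5 liver did not show the difference on this scale. Igkc differed by -0.33 ± 0.49 (adjusted p = 0.815).

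The same fit over 2888 genes outside the immunoglobulin genes, with Jchain and Igkc added, called 20 genes higher in IgA cells (0.693%) and 9 lower (0.312%) at a Benjamini-Hochberg adjusted p under 0.05. With the TAA+C7.5 liver left out 1 call was left, Slpi, with the TAA liver left out there were 152 and with the TAA+C30 liver left out 16, so the calls below lean on the TAA+C7.5 liver. Without the 2 cells that held both IgA and IgG transcripts 11 calls were left.

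IgA cells held more transcripts of 2 gut-homing receptors. Of 12 tested genes of plasma cell homing and surface adhesion, edgeR called 2 higher and 0 lower, and the median log2 difference was 1.26, against 0.00 over all genes. In this list 10 had an unadjusted edgeR p under 0.05, where 433 of all 2888 genes did. DESeq2 called 5, among them Ly6d as lower. Itgb7, the integrin beta 7 subunit that binds the mucosal addressin MAdCAM-1, had 154 UMIs in IgA against 8 in IgG cells of TAA, 197 against 22 in TAA+C7.5 and 109 against 21 in TAA+C30. It was higher by 1.67 ± 0.21 (adjusted p = 0.0119), in 3 of 3 livers. Ccr9, the receptor of the small-intestinal chemokine Ccl25, had 59 against 0, 31 against 0 and 26 against 2 UMIs, and was higher by 4.13 ± 0.65 (adjusted p = 0.0309), in 3 of 3 livers. Leaving out each liver in turn took the adjusted p of Itgb7 to between 0.000146 and 0.107 and that of Ccr9 to between 0.00203 and 0.201. Ccr10, the receptor of the mucosal chemokine Ccl28, was at 335 against 102, 317 against 148 and 475 against 12.7 CPM, and did not pass (2.02 ± 0.51, adjusted p = 0.104). Itga4, the partner of Itgb7 (1.09 ± 0.25, adjusted p = 0.0780), and Klf2, a regulator of lymphocyte egress (1.62 ± 0.45, adjusted p = 0.135), did not pass either. Other genes of the list pointed the other way and did not pass in edgeR. These were Ly6a (-2.22 ± 0.59, adjusted p = 0.117), Ly6d (-1.37 ± 0.32, adjusted p = 0.0814) and Cxcr4 (-1.29 ± 0.31, adjusted p = 0.0923). In control IgA cells, which had no IgG cells to be set against, Itgb7 was at 552 CPM, Ccr10 at 123 CPM and Ccr9 had 0 UMIs in 12 cells.

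Of 9 tested plasma cell markers 3 had an unadjusted edgeR p under 0.05, and DESeq2 called 2. The 1 that edgeR called, as higher in IgA cells, was Tnfrsf17, which encodes the survival receptor BCMA. It was at 615 in IgA against 81.6 CPM in IgG cells of TAA, 887 against 141 in TAA+C7.5 and 677 against 153 in TAA+C30 (log2 2.38 ± 0.22, adjusted p = 0.00251, 3 of 3 livers; 1.54e-07 to 0.0632 with each liver left out). Xbp1 (-0.14 ± 0.18), Prdm1 (0.18 ± 0.27) and Sdc1 (-0.23 ± 0.29) did not pass. Of 20 tested genes of the secretory machinery edgeR called 0, where 5 had an unadjusted p under 0.05 and DESeq2 called 1, and of 10 cycling genes edgeR called 0, where 2 had an unadjusted p under 0.05 and DESeq2 called 0. Cells with at least 3 UMIs of cycling genes were 6 of 49, 15 of 100 and 8 of 59 plasma cells in the thioacetamide livers and 2 of 13 in control.

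IgG cells were richer in Slpi, Oosp1 and Ly6c2. Slpi, the secretory leukocyte protease inhibitor, was at 1466 CPM in IgA against 40532 CPM in IgG cells of TAA, 1229 against 17810 in TAA+C7.5 and 934 against 59688 in TAA+C30. It was lower in IgA cells, at a log2 difference of -5.00 ± 0.43 (adjusted p = 0.00228), in 3 of 3 livers, and at an adjusted p of at most 0.0113 with any liver left out. Oosp1, named for its product in the oocyte, was at 30.5 against 285, 21 against 344 and 21 against 426 CPM (log2 -3.92 ± 0.29, adjusted p = 0.00130; at most 0.0536 with a liver left out). Ly6c2, a surface protein of monocytes and of some lymphocytes, was the 1 call among 10 tested genes of plasma cell survival and identity, with 198 in IgA against 195 UMIs in IgG cells of TAA, 229 against 359 in TAA+C7.5 and 135 against 1538 in TAA+C30 (-2.92 ± 0.39, adjusted p = 0.0146). Ly6c2 is also 1 of the 12 monocyte or macrophage markers, and the other 11 summed to 593, 37.9 and 157 CPM in plasma cells of TAA, TAA+C7.5 and TAA+C30 and 65.9 CPM in control, where Ly6c2 itself was at 749, 1013, 4168 and 395 CPM. Of the 12 markers 3, 5, 3 and 8 were at 0, among these F13a1 in each library.

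Slpi, Oosp1 and the further calls named here were chosen after their values were seen. Higher in IgA cells were Tmsb10, an actin-binding peptide (1.6 ± 0.16), Atp1b1, a subunit of the sodium pump (1.96 ± 0.22), Rgs1, a brake on chemokine receptor signalling (2.88 ± 0.42), and Crip1 (1.81 ± 0.27), with adjusted p between 0.00273 and 0.0259. Lower were Grn, which encodes progranulin (-3.51 ± 0.37), Pon3 (-2.05 ± 0.20) and Ms4a1, the B cell antigen CD20 (-2.95 ± 0.47; 10 against 8, 5 against 19 and 2 against 17 UMIs). The median number of non-immunoglobulin UMIs per cell was 9047 in IgA against 8383 in IgG cells of TAA, 4764 against 5484 in TAA+C7.5 and 4884 against 8562 in TAA+C30, and the part of this depth in the calls was not tested.

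**Figure D4:**
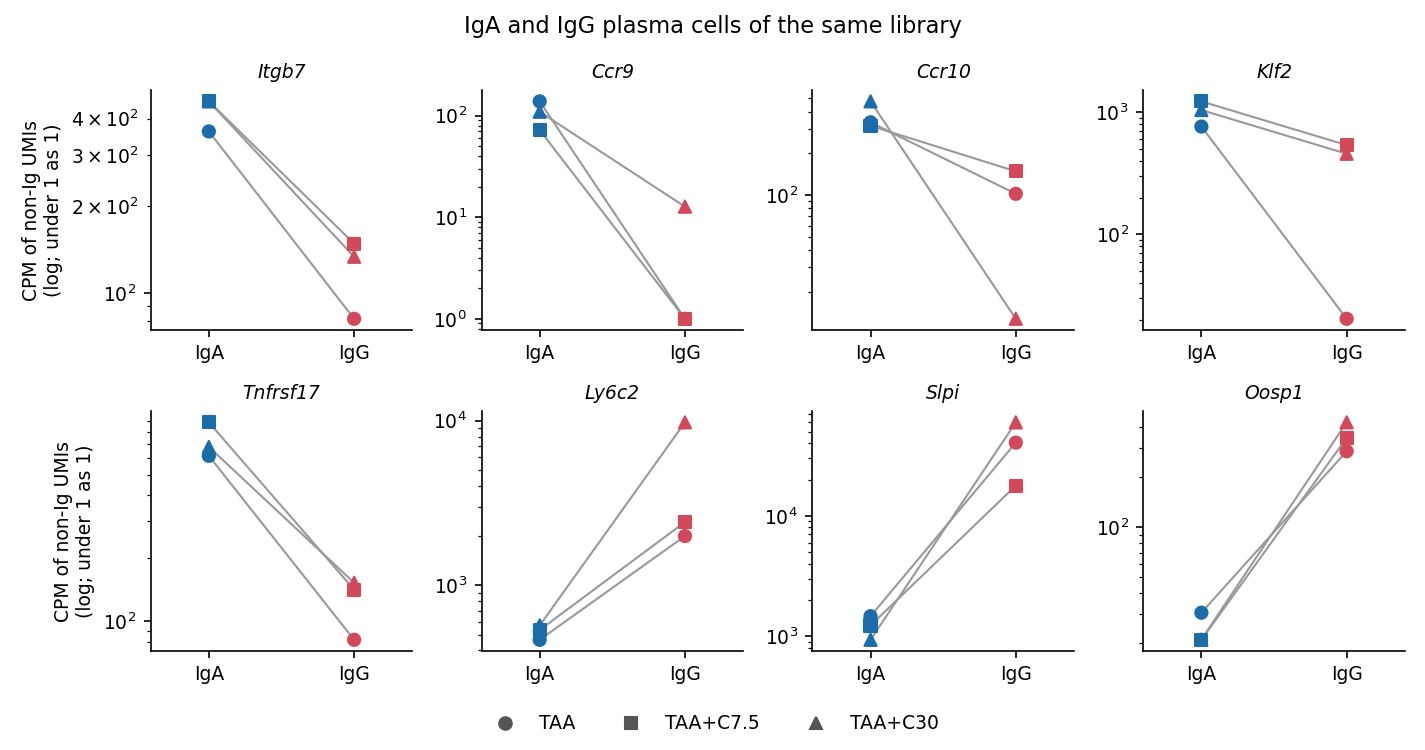
Each panel gives the level of a gene (CPM of non-immunoglobulin UMIs, log scale, values under 1 drawn as 1) summed over IgA and over IgG plasma cells, with a line joining the 2 values of each thioacetamide library. Itgb7, Ccr9 and Tnfrsf17 are higher in IgA cells and Ly6c2, Slpi and Oosp1 in IgG cells of all 3 libraries; Ccr10 and Klf2 point the same way as Itgb7 but did not pass.

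Repeated pairs of variable segments were mostly found in IgA cells, the class with most cells. A heavy and a kappa variable segment, each with at least 3 UMIs, were found together in 38, 46 and 36 plasma cells of TAA, TAA+C7.5 and TAA+C30 and in 10 of control, as 34, 40, 33 and 7 distinct pairs. Pairs seen in more than 1 cell of a library numbered 4, 4, 3 and 3. Of these 14 repeated pairs 13 were of IgA cells alone and 1, Ighv1-64 with Igkv6-15 in TAA+C30, joined an IgA and an IgG2b cell. Ighv1-36 with Igkv9-120 was seen most often, in 4 IgA cells of TAA+C7.5. Of 111 pairs 2 were found in more than 1 library. A shared pair of segments is not a shared rearrangement, since the junction was not read.

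B cells carried mainly Ighm and Ighd, and the switched constant genes were at low levels. Ighm was at 2424, 3049 and 2182 CPM of B cell UMIs in TAA, TAA+C7.5 and TAA+C30, against 4153 CPM in control. Ighd was at 876, 1171 and 1040 CPM, against 1074 CPM in control. Igkc was at 6695, 7934 and 7972 CPM, against 6835 CPM. Ighm was highest in control, whereas for Ighd and Igkc the control lay within the range of the thioacetamide livers. Of heavy-chain UMIs in B cells, Ighm made up 71.0%, 69.5% and 63.4% in the thioacetamide livers and 78.2% in control.

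In B cells no member differed 2-fold in TAA against control, where 0.114% of 12313 genes were higher and 1.02% lower. Ighm was at a ratio of 0.584 (0.569 to 0.599; log2 ratio -0.77). In TAA+C7.5 against TAA 2 members were higher, Ighg2b (log2 ratio 1.24, 75 against 35 UMIs) and Jchain (1.14, 121 against 83 UMIs), and 0 lower, where 0.209% of genes were higher and 0.0835% lower. Counted per cell, without scaling to the total, these ratios were 0.53 and 0.27. In TAA+C30 against TAA Ighg2b was higher (2.68, 151 against 35 UMIs) and no member lower, where 0.189% of genes were higher and 0.12% lower. Single B cells held much of this Ighg2b, with 86 of the 151 UMIs in 1 cell of TAA+C30 and 25 of the 75 in 1 cell of TAA+C7.5.

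The balance of Ighm to Ighd in B cells was lower in the thioacetamide livers. There were 2.77 Ighm UMIs per Ighd UMI in TAA (2.67 to 2.86), 2.60 in TAA+C7.5 (2.50 to 2.72), 2.10 in TAA+C30 (1.98 to 2.23) and 3.87 in control (3.72 to 4.02). The control B cells lay mostly in another cluster, which held 720 of the 891, so the ratio was also taken within clusters. In the cluster with most thioacetamide B cells it was 2.79, 2.61 and 2.07 in TAA, TAA+C7.5 and TAA+C30, against 3.92 in the 91 control cells there. In a further cluster it was 2.70, 2.58 and 2.34, against 3.60 in 80 control cells. Ighd is known to be high in follicular and Ighm in immature and marginal zone B cells. Of 23 genes of B cell subsets, a list chosen with results known, 0 of 23, 0 of 23 and 0 of 22 tested differed 2-fold in TAA against control, TAA+C7.5 against TAA and TAA+C30 against TAA. Over all genes, 0.114%, 0.209% and 0.189% were higher and 1.02%, 0.0835% and 0.12% lower in these comparisons. With shares this small, a list of 23 genes cannot show that B cell subsets were unchanged. In TAA against control, Cr2 (76.8 against 163 CPM) fell just short of the limit, which adds 10 CPM. Cd1d1 (18.9 against 16.8 CPM) went the other way.

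Switched B cells were few. With a minimum of 5 heavy-chain UMIs, IgA calls were 9 of 928 B cells in TAA, 1 of 824 in TAA+C7.5, 2 of 404 in TAA+C30 and 3 of 764 in control, and IgG calls were 5, 4, 2 and 6. Bcl6, the germinal centre regulator, was at 16.5, 17.4 and 17.1 CPM of B cell UMIs in TAA, TAA+C7.5 and TAA+C30, against 43.9 CPM in control. In TAA against control it was the 1 lower gene of 11 tested in a switching and germinal centre list, with 0 higher. Over all genes 1.02% were lower and 0.114% higher there. Against TAA, 0 of 11 differed 2-fold in TAA+C7.5 and 0 of 11 in TAA+C30.

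T cells, used as the measure of free RNA, held a low level of most classes, with Ighg3 at 0 UMIs in TAA+C30 and Ighg2b and Ighg3 at 0 UMIs in control. Igha was at 38.6, 81.6 and 40.8 CPM of T cell UMIs in TAA, TAA+C7.5 and TAA+C30, against 34.7 CPM in control, after leaving out 1 cell of the TAA+C7.5 T cell class that held 2188 Igha, 4518 Igkc and 653 Jchain UMIs. With that cell the TAA+C7.5 level was 521 CPM. Jchain was at 12.5, 28.0 and 18.7 CPM, against 15.8 CPM. Both were far below the plasma cell levels given above.

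Ighm led the heavy-chain UMIs of T cells, with 59.8%, 46.7% and 51.0% in TAA, TAA+C7.5 (same cell left out) and TAA+C30 and 76.6% in control, where in plasma cells it made up 0.0972%, 0.505%, 0.214% and 6.91%. In control, Ighm was at 156 CPM in T cells and 25.7 CPM in endothelial cells. There were 15.2 Ighm UMIs per Ighd UMI in control T cells, against 3.87 in control B cells. The source of the Ighm in T cells was not tested, so its level is not read as free RNA. T cell shares of heavy-chain UMIs, for IgG too, carry that limit. The IgG part followed the order of the plasma cells. IgG genes made up 4.99% of heavy-chain UMIs in T cells of TAA, 10.5% in TAA+C7.5, 24.8% in TAA+C30 and 1.26% in control, the order seen in plasma cells. In TAA, Ighg1 led the IgG UMIs of T cells with 23, before Ighg2b with 9 and Ighg2c with 2. In TAA+C7.5 Ighg2c led with 54, before Ighg1 and Ighg2b with 24 each. In TAA+C30 Ighg2b led with 87, before Ighg2c with 63 and Ighg1 with 52. The leading subclass by UMIs was the same in the plasma cells of each of these libraries, at 7.88% Ighg1, 19.5% Ighg2c and 28.3% Ighg2b of heavy-chain UMIs. In control 6 IgG UMIs were found among 475.

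Set beside this background, an Igha UMI was found in 17.4%, 14.7% and 10.1% of B cells of the thioacetamide livers and 11.8% of control B cells, against 17.9%, 17.4%, 11.7% and 15% of T cells. Jchain was found in 5.34%, 6.64%, 4.18% and 4.04% of B cells and in 5.90%, 6.39%, 5.60% and 6.72% of T cells. An IgG UMI was found in 4.15%, 4.93%, 12.0% and 3.37% of B cells, against 3.50%, 4.73%, 12.5% and 0.988% of T cells. B cells were the shallower class in each library, with a median of 3308, 1557, 1902 and 3173 UMIs, against 4928, 2189, 2791 and 4632 in T cells, so no order is read from these shares. Scaled to the UMIs of the class, with cells of at least 100 heavy-chain UMIs left out, the IgG genes together were at 38.6, 52.5, 151 and 34.2 CPM in B cells, against 6.53, 21.4, 46.6 and 2.57 CPM in T cells. Igha was at 72.7, 114, 69.8 and 52.4 CPM in B cells, against 38.6, 81.6, 40.8 and 34.7 CPM in T cells. On this scale both were higher in B cells than in T cells of all 4 libraries beyond counting error. The ratios were 2.46-fold to 13.3-fold for IgG and 1.4-fold to 1.88-fold for Igha. The scale divides by the UMIs of the class, which were fewer per cell in B cells. Per cell, Igha was at 0.265, 0.134 and 0.171 UMIs in B cells of TAA, TAA+C30 and control, against 0.207, 0.129 and 0.160 in T cells. The Igha ratios, and the Jchain ratio given next, are therefore not read as levels above free RNA. For Jchain the interval of the ratio excluded 1 in TAA+C7.5 (1.73; 1.34 to 2.22) and not in the other libraries. With cells thinned to 1000 UMIs the Igha shares were 5.79%, 9.61%, 5.54% and 4.11% in B cells, against 3.97%, 8.25%, 4.06% and 3.43% in T cells, with 12, 197, 89 and 23 B cells and 22, 170, 94 and 21 T cells left out as shallower. At least 3 IgG UMIs were found in 14, 9, 6 and 11 B cells, against 0, 1, 5 and 0 T cells. Ighg2b in TAA+C30, which differed from TAA in B cells, was at 99.4 CPM in B cells and 20.1 CPM in T cells. Of its 151 UMIs in these B cells 86 lay in 1 cell, and all 23 Ighg3 UMIs lay in 1 cell. The IgG level of TAA+C30 B cells thus leans on single cells.

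Cells with at least 100 heavy-chain UMIs outside the plasma cell class numbered 11. Of these, 5 were B cells with mostly Ighm, at 91 to 170 Ighm UMIs. The others were the T-class cell above, 2 control endothelial-class cells with 3912 and 320 Igha and only lambda light chain, a TAA neutrophil-class cell with 505 Igha, and 2 cells of unnamed clusters, with 968 Ighm in TAA+C7.5 and 2059 Ighg1 in TAA+C30. The last held much of the Ighg1 of its library, of which plasma cells held 59.4%. Plasma cells held 98.2%, 97.4% and 98.7% of the Igha of kept cells in TAA, TAA+C7.5 and TAA+C30, against 87.4% in control.

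Ighm had a further source outside the B lineage. In plasmacytoid dendritic cells Ighm was at 1279, 1539 and 1337 CPM in TAA, TAA+C7.5 and TAA+C30, against 1351 CPM in control, the class next to B cells in each liver when plasma cells and unnamed cells are left aside. An Ighm UMI was found in 99.3%, 95.4%, 98.5% and 100% of these cells, against 24.2%, 15%, 19.3% and 36.8% of T cells. Ighd did not go with it: there were 45.8, 62.1 and 89.9 Ighm UMIs per Ighd UMI, against 111 in control. Immunoglobulin heavy-chain transcripts without a complete rearrangement are known from this lineage, and the 3′ counts do not show whether a variable segment was joined. T cells, at 10.5, 17.6 and 20.8, against 15.2 in control, also stood above the B cell ratio, as did monocytes or macrophages (9.12, 11.5, 40.8 and 25.8) and type 2 or migratory dendritic cells (45.8, 46.0, 44.0 and 24.0). Endothelial cells, at 2.21 (1.45 to 3.41) in TAA and 3.72 (2.93 to 4.76) in control, had the ratio of the B cells of their own library within counting error.

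**Figure D5:**
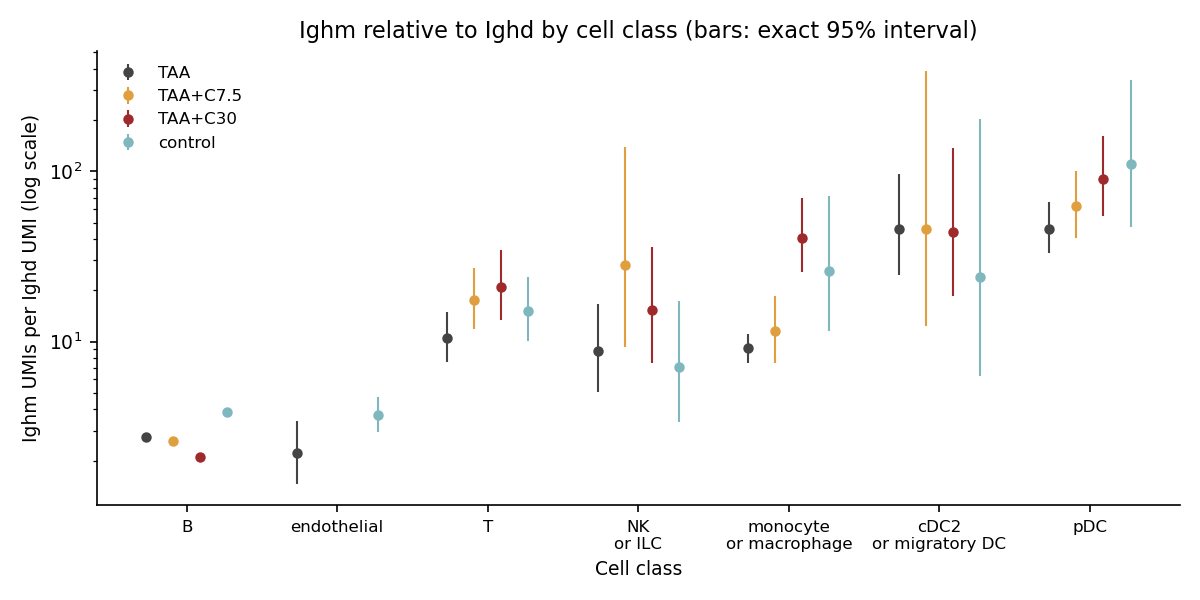
Points give Ighm UMIs per Ighd UMI (log scale) summed over each cell class and library, with exact 95% intervals that cover counting error only. B cells lie between 2.10 and 3.87 and plasmacytoid dendritic cells (pDC) between 45.8 and 111; endothelial cells are drawn for TAA and control, where the class held over 10 UMIs of these genes and 20 cells.

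Across 52 points of 14 cell classes and 4 libraries, the genes most like each member in log2(CPM + 10), among 9135, followed the class that expressed it. The plasma cell points alone set most of these values, and points of 1 library share its depth. Jchain was most like Ccr10 (r = 0.97) and Tnfrsf17 (0.97), Igha like Ccr10 (0.95), and Ighg2b like Oosp1 (0.95). Ighd was most like Fcer2a (0.96), the low-affinity IgE receptor of follicular B cells, and Fcmr (0.96), the IgM receptor. Tnfrsf17 and Fcmr are markers used to name plasma cells and B cells, so their likeness was partly set by the naming. Ighm was most like Tnfrsf13c (0.87), the BAFF receptor, and Fcrla (0.87).

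Genes for receptors of these antibodies were found in other classes of the same livers. Pigr, which carries J chain-bearing IgA into bile, was highest in cholangiocytes, at 589, 256 and 862 CPM in TAA, TAA+C7.5 and TAA+C30, against 1062 CPM in control. Fcmr was highest in B cells (489, 667, 637 and 544 CPM), but it is also a marker used to name that class. Fcgr2b, the inhibitory IgG receptor of sinusoidal endothelium, was highest in endothelial cells, at 2200 CPM in TAA and 2670 in TAA+C7.5, against 2877 CPM in control. It too is a naming marker, of endothelial cells, so these 2 orders were partly set by the naming. In TAA+C30, where endothelial cells were under 20 and left out, Fcgr2b was highest in monocytes or macrophages, at 211 CPM.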

How the data were processed

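Per the labels, 3′ v2 droplet libraries were made by the authors from 1 mouse per group, and the submitters' processing notes name Cell Ranger 3.1.0 and build mm10. The deposited matrices hold whole-number UMI counts per gene and barcode, not normalized and not scaled by transcript length. Barcodes with under 200 genes or over 20% mitochondrial UMIs, and Scrublet doublets (expected rate 5%), were removed. Cells of all libraries were clustered with scanpy 1.11.5 (2000 variable genes, 30 components, Leiden resolution 1) without immunoglobulin genes and Jchain, and clusters were named from marker sets. UMIs were summed per class and library, with exact Poisson, Clopper-Pearson or conditional binomial 95% intervals. The IgA against IgG test used edgeR 4.0.16 (TMM, filterByExpr, library sizes without Jchain and Igkc), with DESeq2 1.42.0 as an alternative. It was added after seeing the data. It recovered large known changes in counts simulated from a common profile and dispersion. Since the simulated libraries differed in depth alone, this does not show how the test performs in these livers. Members, gene lists and naming rules were chosen with earlier results of these data known. Named besides the members were the other constant genes, the genes most like a member, the leading variable segments and up to 4 genes per list, those highest or most different. More were named in the homing list. Alternatives covered call limits, scaling, pseudocounts, filters, class naming, depth and leaving out top cells or libraries.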

Additional observations from a re-analysis of the deposited data

How the results depend on the processing

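Of 163 alternative values for the summary results, 139 kept their value within counting error or 1.5 times, and 24 did not. With each cell classed by its best-scoring marker set, IgA shares of plasma cells were 41.0% in TAA, 53.6% in TAA+C7.5, 35.1% in TAA+C30 and 58.3% in control, the IgG share in TAA+C30 was 16.7%, and the log2 ratio of Ighd in plasma cells of TAA over control was -1.35. Over 14 alternatives the IgG share was 9% to 18.8% in TAA, 16.4% to 23.7% in TAA+C7.5, 16.7% to 33.3% in TAA+C30 and 0 in control. The IgG share of heavy-chain UMIs in plasma cells was 18.7%, 23.2% and 31.0% in TAA, TAA+C7.5 and TAA+C30 as a mean over cells, and 16.2%, 28.7% and 40.8% without the top cell. It was 30.1% in TAA+C7.5 and 43.8% in TAA+C30 with doublets kept, and in TAA+C30 46.1% with no mitochondrial filter and 46.0% by marker sets. With a minimum of 50 UMIs, 176, 65 and 74 genes were past 2-fold in plasma cells, against 692, 156 and 175, since fewer genes were tested. IgA against IgG calls, 29 in all, were 27 with DESeq2 (18 shared), 216 with no filter on low counts, 95 with no term for the library, 11 without the 2 cells of both isotypes and 1 to 152 with each library left out; the cause was not tested. Counted per cell, Ighm in B cells of TAA+C30 over TAA was at -1.08. The trimmed-mean scaling moved all log2 ratios by 0.24 in plasma cells of TAA+C30 over TAA, and in B cells by 0.16 in TAA over control and -0.13 in TAA+C7.5 over TAA. Of 23 member ratios past 2-fold, 183 of 213 alternative values stayed past it, 29 fell short and 1 reversed.

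No paired comparison of the groups was possible because each group is 1 library and the labels carry no replicate numbers. The IgA against IgG fit was paired within livers, with the library as a term. Depth limits control plasma cells most, at 13 cells, and IgG cells of TAA, at 9.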
